A study of Homo sapiens with 8 samples.

Results

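The clustered protocadherin genes lie on the long arm of chromosome 5 in 3 tandem groups, PCDHA, PCDHB and PCDHG. CTCF binding across them was described here from every peak that overlapped a window of 850 kb of the hg19 genome, in either of 2 lists of CTCF ChIP-seq peaks from HT1080 cells. The window starts 65.7 kb before PCDHA1 and takes in the 3 groups, whose variable exons span chr5:140165725-140871267. The control list held 69 such peaks of its 47470, and the list from cells treated with CBL0137 held 52 of its 29558. A control peak that overlapped any treated peak by at least 1 bp was counted as shared, a control peak with no such overlap as lost, and a treated peak with no control peak beneath it as arisen. The window therefore held 73 sites in all, of which 48 were shared, 21 lost and 4 arisen.

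HT1080 is a human fibrosarcoma line that carries an activated ras oncogene. Cells were either left untreated or given CBL0137 at 3 µM for 6 h, and chromatin was precipitated with a polyclonal antibody to CTCF. CBL0137 is a curaxin, a small molecule that intercalates into DNA and destabilises nucleosomes without breaking the DNA. Each condition had 2 ChIP libraries and 2 input libraries, labelled as biological replicates, 8 libraries in all. The deposited lists combine the replicates of a condition, so each peak has 1 value per condition, no spread between replicates can be given, and no test between conditions was made from them.

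Protocadherins are cell-surface adhesion molecules, and the clustered ones give individual neurons distinct surface identities. Each gene has its own promoter and a large variable first exon. In PCDHA and PCDHG that exon is spliced to constant exons at the end of the cluster, while PCDHB genes have a single coding exon. Promoter choice is known to depend on CTCF and cohesin, with CTCF sites at the variable-exon promoters, further sites inside PCDHA variable exons, and enhancers downstream of the clusters. CTCF binds a long asymmetric motif, so a site has a direction, and sites that face each other are the usual anchors of chromatin loops.

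Sites were placed by gene model. A peak was called a promoter peak where its centre lay within 500 bp of the transcription start of a protocadherin gene, and an exon peak where it lay further inside a variable exon. The stretch after the last PCDHA variable exon and before PCDHB1, 82.0 kb long, is called the alpha enhancer side. The 78.7 kb from the last PCDHG variable exon to the end of the window are called the gamma enhancer side. Both names describe position, and no enhancer mark was measured.

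The sequences that the sites were compared by are the best matches, within 400 bp around each peak centre, to a weight matrix of 20 positions. The matrix was built from control peaks of other chromosomes, and its score is a sum of log2 odds. A score of 13.78, passed by 1% of windows 10 kb away from peaks, was required for a match. Each sequence is from hg19, 5′ to 3′ on the strand of the match, and capitals mark the 12 bases aligned to the core CTCF consensus. All protocadherin genes here are transcribed from the plus strand, so a plus-strand site reads in the direction of transcription. The first set holds the 12 PCDHA promoters with a control peak, shown because they differ in fate. All 12 are plus-strand sequences that scored below the match threshold.
PCDHA1 promoter, shared, chr5:140165672-140165691: ttggCCACATGATGTCgctg
PCDHA2 promoter, shared, chr5:140174367-140174386: ttagCCACATGATGTCgctg
PCDHA3 promoter, shared, chr5:140180580-140180599: ttagCCACATGATGTCgctg
PCDHA6 promoter, shared, chr5:140207483-140207502: ggagCCGCATGATGTCgctg
PCDHA8 promoter, shared, chr5:140220716-140220735: gaagCCACATGATGTCgctg
PCDHA10 promoter, shared, chr5:140235427-140235446: aaagCCACCGGATGTCgctg
PCDHA4 promoter, lost, chr5:140186565-140186584: ggagCCACATGATGTCgctc
PCDHA5 promoter, lost, chr5:140201128-140201147: tcatCCACATGATGTCgctg
PCDHA7 promoter, lost, chr5:140213758-140213777: atggCCACATGATGTCgctc
PCDHA9 promoter, lost, chr5:140227873-140227892: tgggCCACGTGATGTCactc
PCDHA11 promoter, lost, chr5:140248469-140248488: ttagGCGCAAGGTGTCgctc
PCDHA12 promoter, lost, chr5:140254830-140254849: tcagTCACATGATGTCgctc

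The second set holds sites inside variable exons, all of them plus-strand. They are shown because they lie in the same gene groups as the promoter sites and carry another form of the motif. Of these 8, those of PCDHA4, PCDHA8 and PCDHGA6 passed the match threshold.
PCDHA4 exon, shared, chr5:140187225-140187244: gtttCCACTAGAGGGCgcct
PCDHA8 exon, shared, chr5:140221359-140221378: gtttCCGCTAGAGGGCgcgt
PCDHA3 exon, arisen, chr5:140181235-140181254: gtttTCGCTAGAGGGCgcat
PCDHA10 exon, arisen, chr5:140236083-140236102: atttCCACTAGAAGGCgcat
PCDHA6 exon, lost, chr5:140208129-140208148: gtttCCACTGGAGGGCgcgt
PCDHGA3 exon, shared, chr5:140725081-140725100: acacTCTCCAGGGGGCgccc
PCDHGA6 exon, shared, chr5:140755131-140755150: acacCCTCCAGGGGGCgccc
PCDHGA8 exon, arisen, chr5:140773861-140773880: acacGCTGCAGGGGGCgccc

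The third set holds 5 enhancer-side sites, which all lie on the minus strand and so read back toward the promoters, and 3 PCDHB promoters on the plus strand for comparison.
Alpha enhancer side, lost, chr5:140419944-140419963: ttaaCCAGCAGAGGGCgagt
Alpha enhancer side, shared, chr5:140420953-140420972: tctgCCACCAGGTGGCaggt
Gamma enhancer side, shared, chr5:140892066-140892085: atggCCACTAGGGGGCgcac
Gamma enhancer side, shared, chr5:140904457-140904476: tcagCCAGCAGGTGGCgctg
Gamma enhancer side, shared, chr5:140947261-140947280: ctgtCCACTAGGTGGCactc
PCDHB9 promoter, shared, chr5:140566649-140566668: gaagCCACAAGGTGGCgctg
PCDHB2 promoter, shared, chr5:140474130-140474149: agagACGCGGGGTGGCgctg
PCDHB6 promoter, lost, chr5:140529573-140529592: ttgaACGCGTGGTGGCggta

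Of the 69 control peaks in the window, 21 were lost, or 30.4% (95% Wilson interval 20.8% to 42.1%, which covers counting error only). The interval treats peaks as independent, which related promoters of a group are not, so it is no test against the background. The background share was 42.9% of all control peaks. With both lists limited to an FDR of at most 1e-05 the shares came together, at 42.6% in the window (23 of 54) and 44.025% over all peaks, and the share at promoters was 48.6% (18 of 37), so the gap from the background depends on that limit. Among the other 2799 control peaks of chromosome 5 the share was 47.8%, and among 2281 control peaks at protein-coding promoters elsewhere it was 25.0%. The 4 arisen peaks made up 7.69% of the 52 treated peaks, beside a background of 8.07%. The lists differ in length. When the control list was cut to its 29558 peaks of highest fold enrichment, 30 window peaks stayed in it. Of these 3 lacked a treated peak, beside 24.6% of the whole cut list. The other 18 lost peaks were below that limit of strength. With both lists limited to a fold enrichment of at least 10, 25 of 68 window peaks were lost, beside 43.5% of all. Requiring more than 50% coverage of the longer peak gave 30 of 69, beside 50.7%. Requiring centres at most 200 bp apart gave 21 of 69, beside 43.1%.

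Strength is given as the fold enrichment of ChIP over input in each list. Control peaks of the window had a median fold enrichment of 23.5 and ranged from 9.99 to 52.5, beside a median of 28.7 for the whole control list. Lost peaks had a median of 19.0 (9.99 to 41.0) in control cells and shared peaks one of 25.4 (11.3 to 52.5), so the ranges overlapped over most of their length. Because each list is scaled to its own input, fold enrichments were not divided between lists. The percentile rank of each shared peak within its own list was compared instead. That rank changed by a median of -6.60 percentile points in the window, beside -9.21 over all 27107 shared peaks, and 66.7% of the window's shared peaks ranked lower in the treated list, beside 64.8% of all. The lists differ in length, and a rank in one is not on the same scale as a rank in the other, so each change is set beside that of all shared peaks. Starting ranks differed, with a median control percentile of 40.9 for the window's shared peaks and 66.7 for all shared peaks. A peak of low rank has more room to rise, and no comparison was matched for starting rank. Ranked among shared peaks only, the window's median change was 8.67 and that of all shared peaks 0.743. Ranked by p-value, the changes were -1.92 and -8.91. A rank change below is by fold enrichment within the whole list unless another ranking is named.

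The authors also deposited lists of sites called higher in one condition, of which only the positions were used here. In the window 24 of 69 control peaks overlapped a site called higher in control cells, beside a background of 51.2%. Such sites lay under 13 of the lost peaks (61.9%, beside 78.4% of all lost peaks). They lay under 11 of the shared peaks (22.9%, beside 30.8% of all shared peaks). A site called higher in treated cells lay under 6 of 69 control peaks (background 2.41%) and 9 of 52 treated peaks (background 7.25%). Of those 9 treated peaks, 7 were inside variable exons, at PCDHA3, PCDHA8, PCDHA11, PCDHA12, PCDHGA3, PCDHGA6 and PCDHGA8. The other two were at the promoters of PCDHAC1 and PCDHB9.

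**Figure D1:**
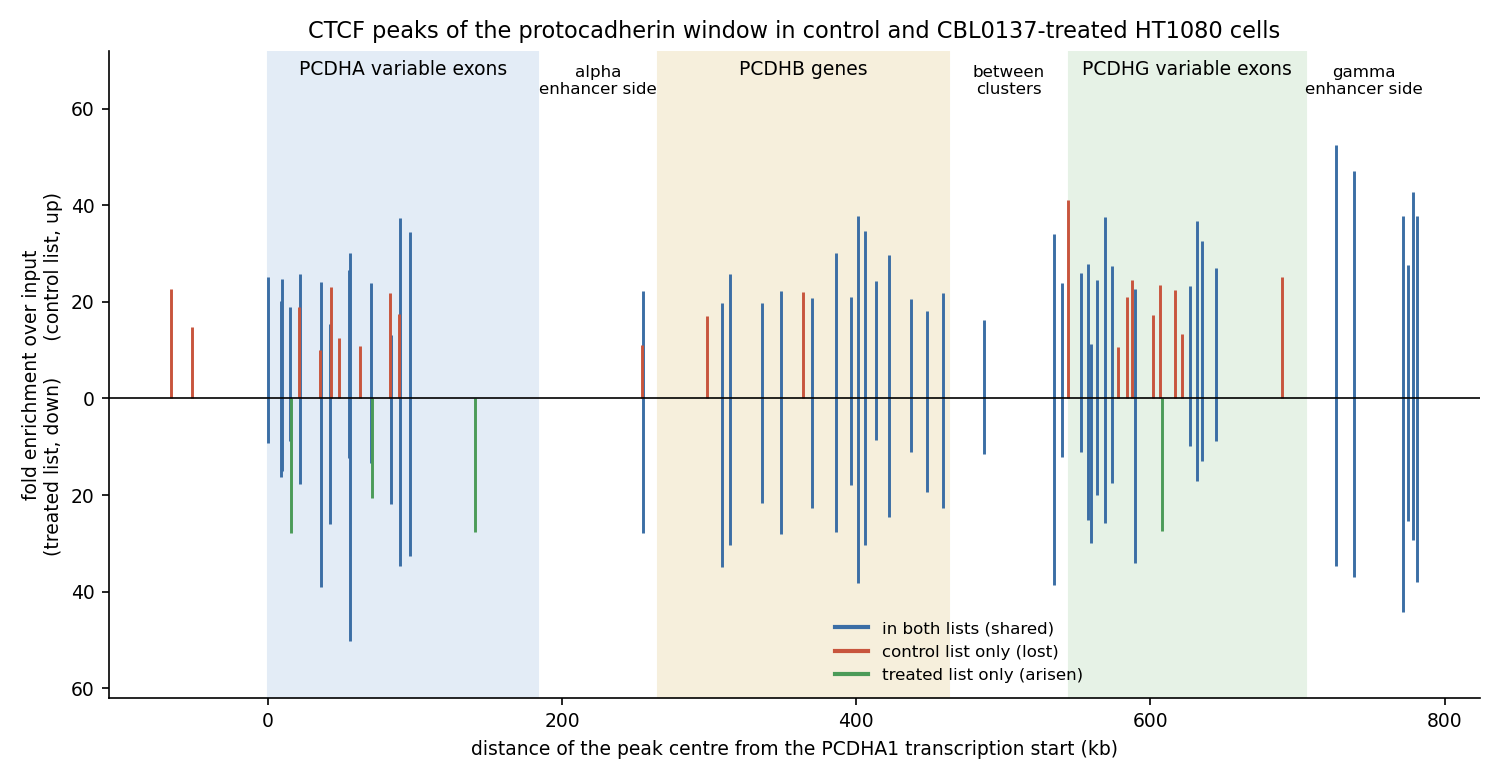
CTCF peaks along the protocadherin window, with the distance of each peak centre from the PCDHA1 transcription start in kb on the x axis and fold enrichment over input on the y axis, control list upward and treated list downward; colours give fate, and blocks mark the 3 gene groups. Of the 21 lost peaks 16 are at promoters, 1 of these in PCDHB, and all 6 peaks at the right end, between 27.6 and 52.5 in the control list, are shared.

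Promoters held most of the binding. Of the 69 control peaks, 45 were at promoters, 10 inside variable exons, 8 on the enhancer sides, 3 between PCDHB and PCDHG, 2 upstream of PCDHA and 1 between PCDHB genes. Among 53 protocadherin genes, with 6 pseudogenes left aside, 43 had a promoter peak in control cells and 28 in treated cells. A promoter peak was present in both lists for 27 genes, in the control list alone for 16, in the treated list alone for 1, and in neither for 9. The promoters of PCDHB17P and PCDHB18P, which are pseudogenes, also had a peak, and both were shared.

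The 3 groups differed in how many promoter peaks were lost. In PCDHA 6 of 12 were lost, in PCDHB 1 of 15 and in PCDHG 9 of 18, against the background of 42.9% and 25.0% at protein-coding promoters elsewhere. Median control fold enrichments were 19.0 in PCDHA, 22.0 in PCDHB and 24.9 in PCDHG, and losses were not compared at equal strength. No test of the difference between groups was made, because the promoters within a group are related copies and not replicates. Promoter peaks lay just upstream of the transcription start, with a median centre at -48 bp in PCDHA, -62 bp in PCDHB and -47 bp in PCDHG. The 29 shared promoter peaks were close to all shared peaks in these measures. Their median rank change was -10.2 points beside -9.21, 72.4% ranked lower beside 64.8%, and 65.5% were narrower in the treated list beside 62.4%. They were less close to the 1711 shared peaks at protein-coding promoters elsewhere. There the median change was -2.64 points, 960 ranked lower and 729 were narrower. The 29 also pool groups that differed, with medians of -22.3 in PCDHA, 2.75 in PCDHB and -30.6 in PCDHG. A site called higher in control cells lay under 19 of the 45 control promoter peaks, 13 of them in PCDHG, 4 in PCDHA and 2 in PCDHB. The share was 51.2% over all control peaks.

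**Figure D2:**
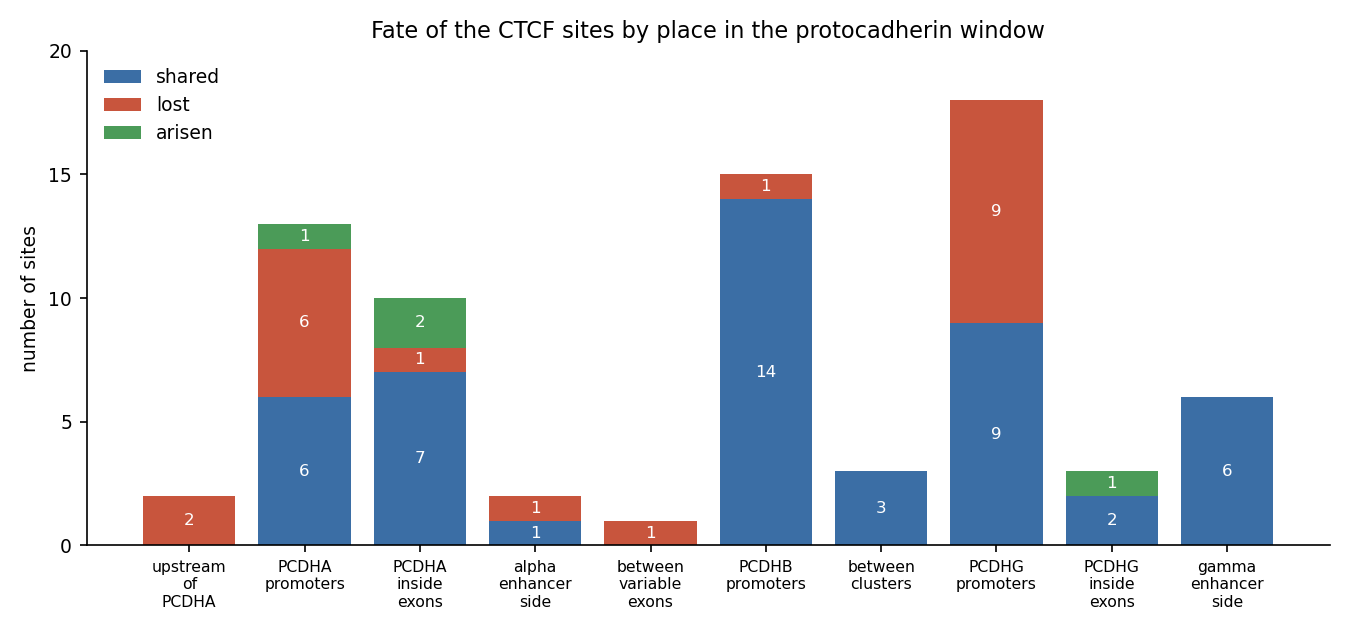
Number of CTCF sites at each place of the window (y axis), split by colour into sites in both lists (shared), in the control list alone (lost) and in the treated list alone (arisen). PCDHB promoters stand at 14 shared and 1 lost, whereas PCDHA promoters stand at 6 and 6 and PCDHG promoters at 9 and 9.

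PCDHA encodes the alpha protocadherins, 13 alternate genes followed by the C-type genes PCDHAC1 and PCDHAC2. In control cells the promoters of PCDHA1 to PCDHA12 all had a peak, and those of PCDHA13, PCDHAC1 and PCDHAC2 had none. The lost promoter peaks were those of PCDHA4, PCDHA5, PCDHA7, PCDHA9, PCDHA11 and PCDHA12. Their control fold enrichments ran from 9.99 at PCDHA5 to 21.8 at PCDHA11, with a median of 15.0. The 6 retained promoter peaks ran from 15.5 at PCDHA6 to 26.6 at PCDHA8 in the control list, with a median of 22.1. The retained peaks were thus stronger on the whole, although the ranges overlapped.

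The 6 retained PCDHA promoters had a median rank change of -22.3 points by fold enrichment and -25.0 by p-value, with 5 lower and 1 higher by each. Ranked among shared peaks only, the median was -5.63, with 4 lower and 2 higher, beside 0.743 for all shared peaks. The PCDHA1 promoter had a fold enrichment of 25.1 in control cells and 9.32 in treated cells, and ranked lower by all 3 measures. The direction at single promoters can turn with the measure. The PCDHA6 promoter had 15.5 and 26.1, a change of 31.3 points by fold enrichment and -39.8 by p-value, and its peak narrowed from 250 to 100 bp. The PCDHA8 promoter had 26.6 and 12.4, with changes of -34.0 and 14.2 points. The single arisen promoter peak was that of PCDHAC1, centred 317 bp after the start, with a treated fold enrichment of 27.6. Its 400 bp were 69.2% G+C and held 40 CpG, beside medians of 40.2% and 10 at the control promoter peaks.

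The sequences printed above for these 12 promoters separate the fates closely. In PCDHA1, PCDHA2, PCDHA3, PCDHA5, PCDHA6, PCDHA8 and PCDHA10 the match runs into the letters GNCGCTG, and 6 of these 7 promoter peaks were retained. In PCDHA4, PCDHA7, PCDHA9, PCDHA11 and PCDHA12 those letters were absent from the 250 bp before to 50 bp after the start, and all 5 peaks were lost. The exception, PCDHA5, was the weakest PCDHA promoter peak in control cells. The lost peaks as a set were also weaker, with a median of 15.0 beside 22.1, and letters and strength were not examined apart. These letters were chosen after the sequences and fates had been seen, and no test was made.

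The letters GNCGCTG were then searched on both strands of the same interval in all 53 genes. They were present on the transcribed strand of 39 genes (73.6%), at a median of -54 bp from the start, and on the other strand of 3 (5.66%). Among 19768 other protein-coding promoters they were found in 19.6% on the transcribed and in 18.3% on the other strand. By group the transcribed strand carried them in 7 of 15 PCDHA, 13 of 16 PCDHB and 19 of 22 PCDHG genes. Of the promoter peaks with these letters 11 of 11 were retained in PCDHB and 8 of 16 in PCDHG. The close separation seen in PCDHA was therefore not seen in PCDHG. Without the letters, 1 of 2 was retained in each of those groups. A match to letters is a description of sequence and not of binding.

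A further set of PCDHA sites lay inside the variable exons. Control exon peaks were found in 8 genes, PCDHA2, PCDHA4, PCDHA5, PCDHA6, PCDHA8, PCDHA11, PCDHA12 and PCDHA13, with centres 588 to 658 bp after the start. The exon peak of PCDHA6 was lost, with a control fold enrichment of 23.03, and exon peaks arose in PCDHA3, at 27.8, and in PCDHA10, at 20.7. In control cells 7 PCDHA genes had both a promoter and an exon peak, 5 a promoter peak alone and 1, PCDHA13, an exon peak alone. In treated cells 4 had both, 3 a promoter peak alone and 5 an exon peak alone. In PCDHA4, PCDHA5, PCDHA11 and PCDHA12 the promoter peak was thus missing from the treated list while the exon peak was still called. The promoter peaks of PCDHA11 and PCDHA12 overlapped a site called higher in control cells, and those of PCDHA4 and PCDHA5 did not.

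Exon peaks of PCDHA varied in strength and in how their rank moved. The PCDHA8 exon peak had fold enrichments of 30.1 in control and 50.2 in treated cells, the highest value of any treated peak in the window, and ranked 34.5 points higher by fold enrichment and 2.39 by p-value. The PCDHA11 exon peak had 13.1 and 21.9 and ranked higher by 26.1 and 42.1 points. At other exons the 2 rankings went opposite ways. The PCDHA5 exon peak had 24.02 and 39.1, with changes of 36.7 by fold enrichment and -14.5 by p-value. The PCDHA4 exon peak had 25.9 and 17.8, with changes of -17.7 and 43.6, and the PCDHA12 exon peak had 37.3 and 34.6, with changes of -7.04 and 69.7, while these 2 peaks widened from 200 to 300 bp and from 100 to 300 bp. Over the 7 shared PCDHA exon peaks the median change was -4.24 by fold enrichment and 23.2 by p-value, so no direction is given for them as a group. Sites called higher in treated cells lay under the shared exon peaks of PCDHA8, PCDHA11 and PCDHA12.

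PCDHG had exon peaks in fewer genes and much further in. Those of PCDHGA3 and PCDHGA6 were centred 1705 and 1668 bp after the start, and a peak arose in PCDHGA8 at 1676 bp. The PCDHGA3 exon peak had a fold enrichment of 11.3 in control and 30.0 in treated cells, a rank change of 49.99 points (42.8 by p-value), and widened from 100 to 250 bp. The PCDHGA6 exon peak had 22.6 and 34.1, a change of 31.6 points (70.7 by p-value), and widened from 150 to 300 bp. The arisen PCDHGA8 peak had 27.4. All 3 overlapped a site called higher in treated cells, while the promoter peaks of PCDHGA6 and PCDHGA8 were lost and overlapped sites called higher in control cells. In treated cells these were 2 genes with an exon peak and no promoter peak, a state that no PCDHG gene had in control cells.

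Over both groups the 10 control and 3 arisen exon peaks gave 13 exon sites, 9 of them shared, 1 lost and 3 arisen. A site called higher in treated cells lay under 5 of the 10 control exon peaks (background 2.41%) and 7 of the 12 treated ones (background 7.25%), and a site called higher in control cells under none. Of the control promoter peaks in these groups, 0 of 12 in PCDHA and 0 of 18 in PCDHG lay at a site called higher in treated cells. The 9 shared exon peaks changed in rank by a median of 26.1 points by fold enrichment, 5 higher and 4 lower, by 42.1 by p-value, 7 higher and 2 lower, and by 30.5 among shared peaks only, 8 higher and 1 lower. Over all shared peaks these medians were -9.21, -8.91 and 0.743. The 9 exon peaks started lower, at a median control percentile of 38.8 beside 66.7 for all shared peaks, and the part of starting rank was not tested. By fold enrichment the groups differed, with a median of -4.24 for the 7 PCDHA peaks and 40.8 for the 2 PCDHG peaks. No direction by fold enrichment is therefore given for the 9 together. Of the 9, 66.7% were wider in the treated list, beside 15.0% of all shared peaks. Exon peaks were narrow to begin with, at a median of 200 bp in the control list beside 300 bp for all control peaks. The comparison was not matched for width. Exon peaks had a median G+C content of 49.4% and 17.5 CpG per 400 bp, against 40.2% and 10 at promoter peaks. The part of base composition in these differences was not tested.

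**Figure D3:**
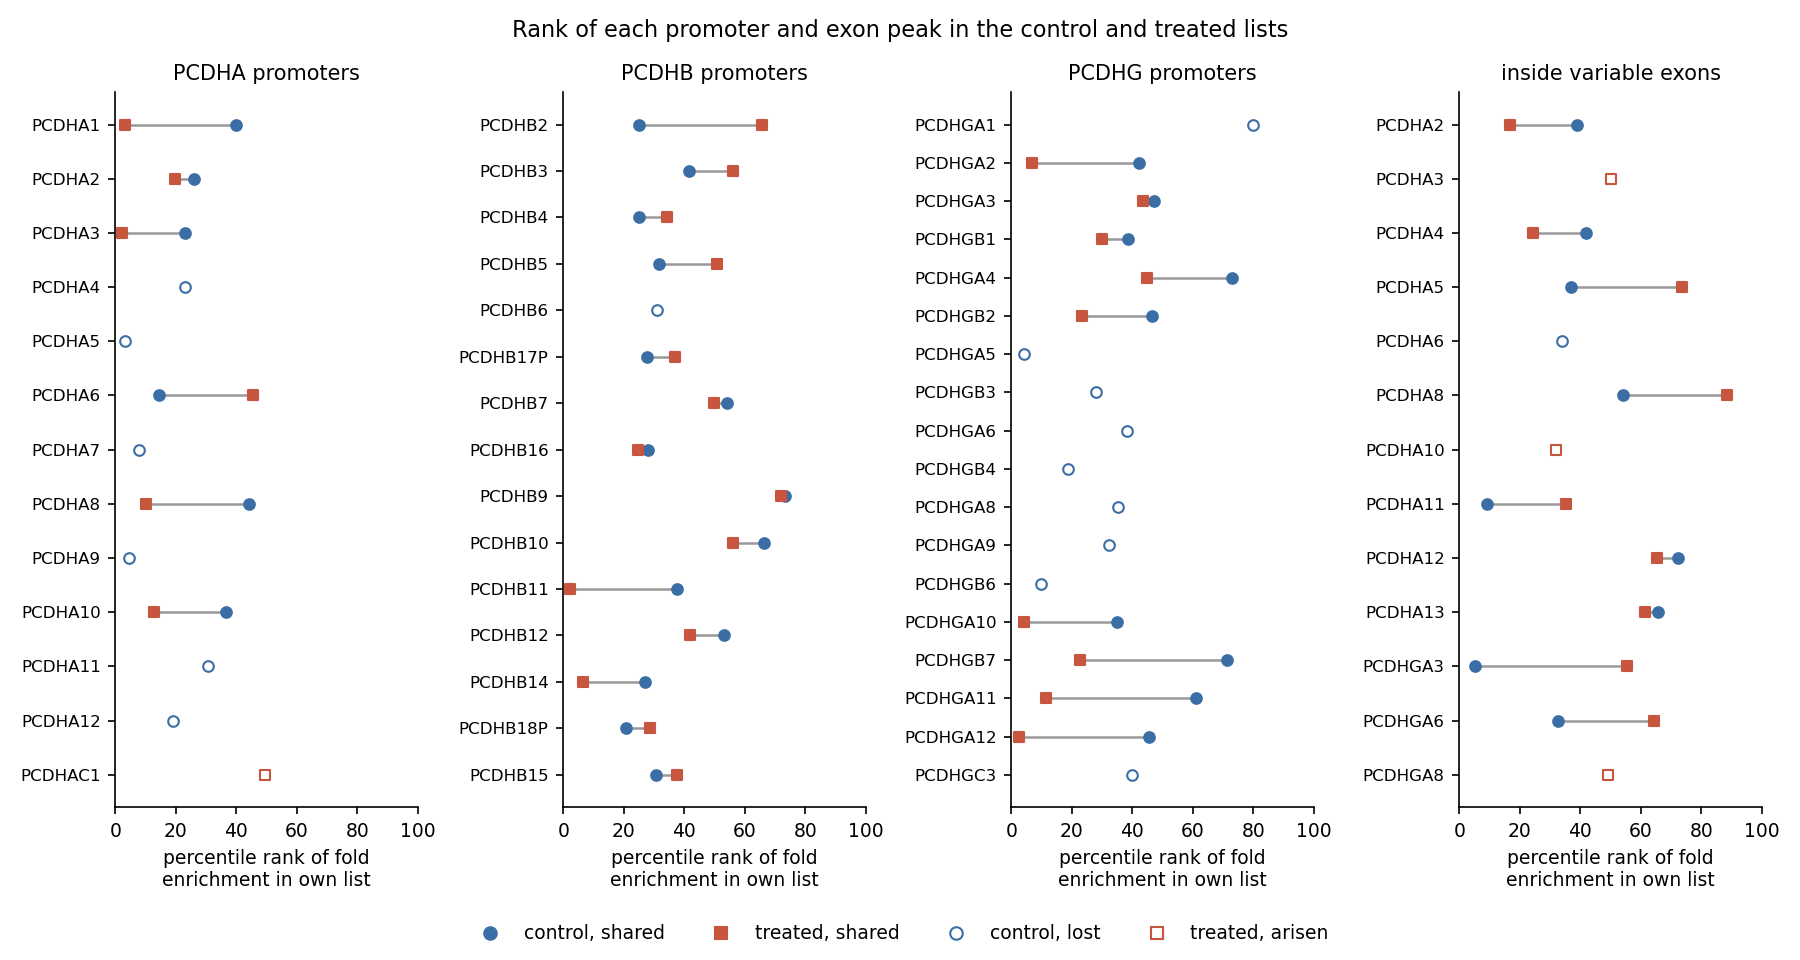
Percentile rank of fold enrichment within the control list (blue circles) and the treated list (red squares) for each promoter and exon peak, in genome order, with a grey line joining the values of a shared peak and open symbols for lost or arisen peaks. All 9 shared PCDHG promoters lie lower in the treated list, PCDHB promoters divide into 7 higher and 7 lower, all by fold enrichment, and the shared PCDHG exon peaks lie 49.99 and 31.6 points higher.

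PCDHB encodes the beta protocadherins, which lack constant exons. Peaks were found at the promoters of 13 of its 16 genes in control cells and of 12 in treated cells. The peak lost was that of PCDHB6, with a control fold enrichment of 22.0, at a site called higher in control cells. No PCDHB exon peak was found in either list. Together with the 2 pseudogene promoters, control fold enrichments ran from 18.1 at PCDHB18P to 37.8 at PCDHB9, and treated ones from 8.64 at PCDHB11 to 38.3 at PCDHB9. PCDHB9 thus led both lists.

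The 14 shared PCDHB promoters had a median rank change of 2.75 points by fold enrichment, 7 higher and 7 lower, and of 2.28 by p-value, 8 higher and 6 lower. Among shared peaks only it was 16.0, with 12 higher and 2 lower, so it lay above the medians of all shared peaks by each ranking. These 14 started lower, at a median control percentile of 31.2 beside 66.7 for all shared peaks, and the part of starting rank was not tested. Single promoters again depended on the measure. PCDHB2 had 19.8 in control and 34.8 in treated cells, the largest gain in fold rank at 40.8 points, but changed by -1.87 by p-value. PCDHB11 had 24.3 and 8.64, the largest drop in fold rank at -35.5 points, but changed by 3.01 by p-value. PCDHB14 was lower by both, with 20.6 and 11.0 and changes of -20.5 and -35.7 points, and its peak narrowed from 300 to 100 bp at a site called higher in control cells.

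PCDHG encodes the gamma protocadherins of types A, B and C. Its promoters held 18 control peaks of 22 genes, and the 9 lost ones were those of PCDHGA1, PCDHGA5, PCDHGB3, PCDHGA6, PCDHGB4, PCDHGA8, PCDHGA9, PCDHGB6 and PCDHGC3. The PCDHGA1 peak had a fold enrichment of 41.0, the highest of any promoter or lost peak in the window. The others ran from 10.7 at PCDHGA5 to 25.1 at PCDHGC3. Along the cluster the losses formed a block, since every control promoter peak from PCDHGA5 to PCDHGB6, 7 in all, was lost. This run was picked out after the fates had been seen. Its peaks at PCDHGB3, PCDHGA6, PCDHGA8 and PCDHGA9 overlapped a site called higher in control cells. Those at PCDHGA5, PCDHGB4 and PCDHGB6, with control fold enrichments of 10.7, 17.3 and 13.4, did not. PCDHGA2 to PCDHGB2 before the block, and PCDHGA10 to PCDHGA12 after it, kept theirs.

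Retained PCDHG promoters ranked lower in the treated list in 9 of 9 cases, by fold enrichment and by p-value alike, where 64.8% and 65.5% of all shared peaks did. Their control fold enrichments ran from 23.3 at PCDHGA10 to 37.6 at PCDHGA4, and their treated ones from 8.90 at PCDHGA12 to 25.8 at PCDHGA4. The median change was -30.6 points by fold enrichment and -32.9 by p-value, beside -9.21 and -8.91 for all shared peaks. Among shared peaks only it was -16.3 beside 0.743, with 7 lower and 2 higher, the latter PCDHGA3 and PCDHGB1.

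PCDHGA11 had 32.7 and 12.9, a change of -49.8 points, and PCDHGB7 had 36.8 and 17.2, a change of -48.5. Both were also lower by the other rankings. Of the 9 retained peaks, 88.9% were narrower, beside 62.4% of all shared peaks. A site called higher in control cells lay under 7 of the 9 (77.8%), beside 30.8% of all shared peaks. Such sites lay under 6 of the 9 lost PCDHG promoter peaks (66.7%), beside 78.4% of all lost peaks. These shares are descriptions, with no test.

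Both lists left 9 promoters without a peak, those of PCDHA13, PCDHAC2, PCDHB1, PCDHB8, PCDHB13, PCDHGA7, PCDHGB5, PCDHGC4 and PCDHGC5. The authors discarded reads with more than 1 alignment, and copies of sequence within the clusters can lower the reads that remain. Around each promoter the share of 75-base stretches with another place in the window was therefore counted, allowing 7 differences. Paired reads, which the labels name where the study's methods give single reads of this length, would align uniquely more often than such stretches. It was 64.8% at PCDHB8 and at PCDHB13 and 50.2% at PCDHGB5, so 3 of the 10 promoters without a control peak had a share above 50%. The remaining 7 were at 0. Of the 43 promoters with a control peak, 1 exceeded 50%, PCDHGB4 at 50.2%, and 40 were at 0. Absence of a peak at PCDHB8, PCDHB13 and PCDHGB5 can therefore not be read as absence of binding. The missing treated peak at PCDHGB4 has the same limit. Among the sites themselves, 18 of the 21 lost and 43 of the 48 shared were at 0, and the exon peak of PCDHA4 had the highest share of any shared site at 35.5%.

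Of the 8 control peaks on the enhancer sides 7 were shared. On the gamma side all 6 control peaks were shared, and control fold enrichments ran from 27.6 to 52.5 and treated ones from 25.4 to 44.1. These 6 were strong peaks, at a median control percentile of 78.1. Loss was 42.9% over all control peaks and 24.6% over the control list cut to its strongest 29558. Whether place adds to strength here was not tested. The strongest control peak of the window, chr5:140891801-140892400, lies in the untranslated part of the last exon annotated for PCDHGC5, which is a constant exon of the gamma genes. Its fold enrichment was 52.5 in control and 34.7 in treated cells, and its rank changed by -27.9 points by fold enrichment and 12.8 by p-value. The other 5 lie in introns of DIAPH1, which encodes an actin-nucleating formin and adjoins the cluster.

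Of those 5, the peak at chr5:140904151-140904750 had 47.1 in control and 37.1 in treated cells, and that at chr5:140943651-140944200 had 42.8 and 29.3. Both overlapped a site called higher in control cells. The peak at chr5:140937401-140937850 had 37.7 and 44.1, and ranked higher by all 3 measures, by 8.28 points by fold enrichment. The peaks at chr5:140940451-140940850 and chr5:140947001-140947550 changed by -2.55 and -1.85 points. Gamma-side peaks were also broad, with a median width of 550 bp against 300 bp at promoters.

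On the alpha side there were 2 control peaks, about 1 kb apart. The upstream one, chr5:140419901-140420000, had a fold enrichment of 11.0 and was lost. The downstream one, chr5:140420801-140421150, had 22.2 in control and 27.9 in treated cells, with a rank change of 18.6 points by fold enrichment and -49.8 by p-value. Neither overlapped a site called higher in one condition. These 2 peaks are centred at -11008 and -9983 bp from the PCDHB1 start, in the stretch that follows the PCDHA constant exons.

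Between PCDHB and PCDHG all 3 peaks were shared. The peak at chr5:140699701-140700150 lies at the 5′ end of TAF7, which encodes a subunit of the general transcription factor TFIID, and had 34.0 in control and 38.6 in treated cells. The peaks at chr5:140652551-140652800 and chr5:140705601-140705900 went from percentile 16.0 to 7.91 and from 36.8 to 9.45. Sites apart from promoters, exons and enhancer sides were otherwise lost. Both peaks upstream of PCDHA, chr5:140099901-140100100 with 22.7 and chr5:140114001-140114250 with 14.9, were lost, as was the peak at chr5:140464051-140464300 before PCDHB2, with 17.1. All 3 overlapped a site called higher in control cells.

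Sequence matches divided the window by place as well. A match to the matrix was found in 18 of 69 control peaks, beside 50.6% of all control peaks and 66.0% of all treated peaks. Of the shared peaks 17 of 48 had a match, of the lost peaks 1 of 21, the upstream alpha-side site, and of the arisen peaks 0 of 4. The match share of all shared and of all lost peaks was not counted, so this split is not read as a trait of the window. Of the lost peaks, 16 were at promoters, where matches were few. At promoters 3 of 45 had one, PCDHB9 (score 19.53), PCDHB10 (14.72) and PCDHGA12 (13.86). Inside variable exons 7 of 10 had one, and on the enhancer sides 7 of 8. Median best scores were 10.3 at PCDHA promoters, 9.95 at PCDHB promoters and 3.89 at PCDHG promoters, against 15.8 inside exons and 20.2 on the gamma side.

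Direction followed place. All 3 promoter matches and all 7 exon matches were on the plus strand, and all 7 enhancer-side matches on the minus strand, facing back toward the promoters. Whether or not it passed the threshold, the best-scoring sequence of the matrix was on the plus strand at 12 of 12 PCDHA, 15 of 15 PCDHB and 17 of 18 PCDHG promoter peaks. The exception was PCDHGA5. Low scores make the strand less certain, and 11 of the 18 PCDHG promoter scores were below 5, the lowest being -2.23. The best reading of the core consensus alone was on the plus strand, or tied between strands, at 11 of 12 PCDHA, 10 of 15 PCDHB and 15 of 18 PCDHG promoter peaks. Ties were not counted apart, so these are upper limits for the plus strand. The matrix sequences had a median position of -60 bp from the start in PCDHA, -67 bp in PCDHB and -50.5 bp in PCDHG. At all 13 exon sites the best sequence was likewise on the plus strand. The gamma-side peak at chr5:140940451-140940850 had no match and was shared. Its best sequence, with a score of 2.16, was on the plus strand, unlike the enhancer-side matches.

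**Figure D4:**
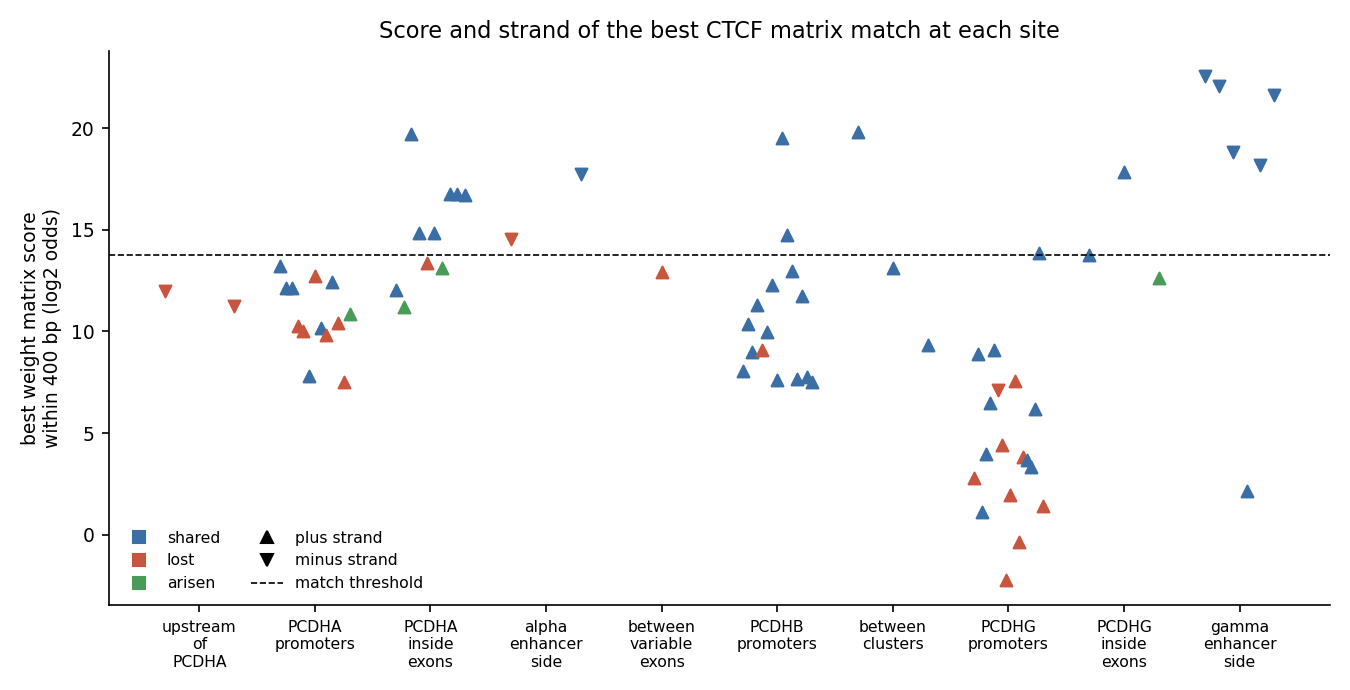
Score of the best matrix match within 400 bp of each peak centre (y axis, log2 odds) by place (x axis), with triangles pointing up for the plus strand and down for the minus strand, colours for fate, and a dashed line at the match threshold of 13.78. Above the line the 7 enhancer-side sites point down and the promoter and exon sites point up, while most promoter sites lie below it.

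A match in an exon did not by itself go with a peak. Searching each variable exon from 300 bp after the start gave a match in 8 of 15 PCDHA, 0 of 16 PCDHB and 3 of 22 PCDHG genes, all on the plus strand. In PCDHA 6 of the 8 matches were under a control peak, and the same number under a treated peak. Those of PCDHA7 and PCDHA9, both with a score of 17.54 and lying 462 and 576 bp after the start, were in no peak of either list. Both promoters had a control peak, and both of those were lost. In PCDHG the match of PCDHGA6 was under a shared peak, and those of PCDHGA3, 1279 bp after the start, and PCDHGC5, 2088 bp after it, were not under any.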

How the data were processed

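CTCF ChIP-seq of 2 ChIP and 2 input libraries per condition was aligned by the authors to hg19 with Bowtie2 2.2.3, keeping uniquely aligned reads (SAMtools 1.5 and deepTools 2.0 are also named in the submitters' processing notes), and peaks were called per condition from both replicates with PePr (p-value at most 0.05, sliding window of 100 bp). The deposited lists have no header, and their values were read as fold enrichment over input, p-value and FDR from their ranges and the caller's format. They hold no read counts, so library depth cannot be read from them and no interval that needs depth is given. The deposited differential lists also hold fold changes and p-values of the authors' comparison, which were not used.

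Peaks were overlapped with Python 3.11.15 (pandas 2.3.3, numpy 2.4.6, pysam 0.24.0) and placed with GENCODE gene models of the hg19 build, the annotation's main transcript standing for each gene. The weight matrix rests on 4741 instances from the 5000 control peaks of lowest p-value off chromosome 5. Overlap and matrix code were tested on simulated data. Every peak was a member, and where a place held more than 12, the lost, arisen, highest and lowest were given in full. Peaks named for their rank change, the letters GNCGCTG, the sequence copies (at least 20 shared bases), the exon search and the rankings other than by fold for groups of peaks were chosen after values were seen. The members and lists were chosen with earlier results of these data known.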

Additional observations from a re-analysis of the deposited data

How the results depend on the processing

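Of 48 alternative values, 35 kept their direction and lay within 1.5 times the value reported, 12 moved further and 1 reversed. With peaks of FDR at most 1e-05, lost peaks on the enhancer sides went from 1 to 0, arisen peaks from 4 to 7, and genes with a treated promoter peak from 28 to 18. Counting peaks as shared only above 50% coverage of the longer one gave 13 arisen peaks. Cutting the control list to the length of the treated list gave 3 lost peaks in the window, 3 at promoters and 0 on the enhancer sides, with 25 arisen, and the loss over the whole list was then 24.6%. A matrix threshold passed by 5% of windows gave 39 peaks with a match and 17 plus-strand promoter matches, and a core consensus with at most 1 mismatch gave 1 such promoter match. The median rank change went from -6.60 to -1.92 with ranks of the p-value and reversed to 8.67 with ranks among shared peaks only. The causes of these shifts were not tested beyond what each setting removes by construction.

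No paired analysis was possible because each list combines the replicates of its condition. Leaving out a replicate was not run for the same reason.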
